A study of Mus musculus with 6 samples.

Results

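The cytosolic ribosomal protein genes were followed in mouse motor neuron progenitors that carried the label Setd5sh or control. Members were the protein-coding genes whose symbol starts with Rpl or Rps and a digit, together with Rplp0, Rplp1, Rplp2 and Rpsa, without kinases and pseudogenes, that averaged at least 1 FPKM over the 6 libraries. FPKM, the authors' deposited unit, are counts scaled by a gene's exonic length and by the library's total count. Of 55400 genes in the table, 93 had such a symbol, 86 of these were annotated as protein coding, and 83 reached the minimum. The 83 comprise 46 genes named for the large subunit, 34 named for the small subunit and 3 of the P stalk. The level minimum did not trim the set closely, since the lowest member, Rps19bp1, averaged 32.4 FPKM. The 3 genes left out for low level were Rpl10l at 0.467, Rpl39l at 0.287 and Rpl3l at 0.185 FPKM, which are paralogs of Rpl10, Rpl39 and Rpl3. The name rule also admitted Rps19bp1, which encodes a protein that binds Rps19 and is not itself a ribosomal protein, and Rps27rt, a retrotransposed copy of Rps27. It left out ribosomal proteins under other names, such as Fau and Rack1.

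The 3 Setd5sh libraries and 3 control libraries hold polyadenylated RNA of day 4 progenitors, which embryonic stem cells of the C57BL/6 mouse strain had been led to form. The labels give the genotype of both groups as WT, and all libraries received the same agents: 1 µM retinoic acid, 0.5 µM of the hedgehog agonist SAG, and 1 µg/mL doxycycline for 36 hours before harvest. The group name has the form used for a short hairpin RNA against Setd5, a SET domain protein of chromatin; the sources used here name no hairpin sequence, promoter or number of clones. The stem cells had been kept on a layer of mouse embryonic fibroblasts, and nothing in the labels says that the numbered replicates were separate cultures, so p-values measure the spread between these libraries, which may be technical.

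The cytosolic ribosome is built from ribosomal RNA and a set of proteins that each assemble into the large or the small subunit. The subunits need their proteins in matched amounts, and most of the mRNAs begin with a C followed by a run of pyrimidines, the 5′ terminal oligopyrimidine or TOP motif, through which mTOR signalling and the RNA-binding protein Larp1 control their translation together. Developing neural progenitors grow and divide rapidly and make ribosomes at a high rate. Loss of single ribosomal proteins is known to stabilise p53 through free Rpl5 and Rpl11, which bind the ubiquitin ligase Mdm2.

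Because these genes are known for their shared start, the bases around the transcription start are shown for members at both ends of the range of coding length, by which the members are grouped further on. RefSeq promoter entries on GRCm38.p6 were matched by symbol to 63 of the 83 members, which gave 74 start windows of 55 bases, 30 before and 25 from the annotated start. The first set holds the 4 shortest coding sequences and the second the 4 longest among members with an entry, with the longest run of C and T in capitals and the sequence on the gene's strand.
Rpl41, chr10:128549144-128549198, minus strand: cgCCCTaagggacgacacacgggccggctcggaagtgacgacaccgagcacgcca
Rpl39, chrX:37085198-37085252, minus strand: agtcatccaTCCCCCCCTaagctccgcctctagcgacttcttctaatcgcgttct
Rps28, chr17:33824538-33824592, minus strand: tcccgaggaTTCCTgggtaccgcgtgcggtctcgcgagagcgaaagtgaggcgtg
Rpl38, chr11:114668550-114668604, plus strand: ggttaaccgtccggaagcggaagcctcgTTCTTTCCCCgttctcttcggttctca
Rpl6, chr5:121204471-121204525, plus strand: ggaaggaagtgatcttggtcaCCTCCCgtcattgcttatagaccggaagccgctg
Rpl5, chr5:107900498-107900552, plus strand: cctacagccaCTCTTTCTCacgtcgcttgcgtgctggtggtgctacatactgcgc
Rplp0, chr5:115559437-115559491, plus strand: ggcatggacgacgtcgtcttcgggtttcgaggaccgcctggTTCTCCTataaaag
Rpl4, chr9:64173357-64173411, plus strand: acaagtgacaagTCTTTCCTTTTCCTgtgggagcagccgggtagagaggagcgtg

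Pyrimidine runs were common in the windows around the members' starts. A run of at least 8 C or T lay in 35 of 74 member windows, or 47.3%, and in 21.7% of all 32851 windows in the table, with a median longest run of 7 bases in member windows and 5 bases in all windows. The letters CTTTC, on either strand and partly overlapping those runs, were in 33.8% of member windows and 13.7% of all windows. In the whole 300-base promoter entries, CCGGAAG, a core of ETS factor motifs, was found on either strand in 26 of 74, or 35.1%, against 8.86% of all entries. TATAAA was found on either strand in 9.46% of the members' whole entries and in 13.6% of all, but in 5.41% of their start windows and in 2.78% of all windows. These matches describe the letters in windows around annotated starts, which can lie some bases from the starts used in these cells. Among the windows shown, only the longest run of Rpl38 crossed the annotated start. That of Rplp0 began at base 12, counted from the start, and the others ended before the start. The shares count runs anywhere in the window and are no count of TOP motifs.

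Library totals were between 19639303 and 32046466 counts, and the smallest count of any member in any library was 705, for Rps19bp1, so counting error was small for all members. Setd5 itself was at 14.4, 13.5 and 12.9 FPKM in the Setd5sh libraries, against 22.2, 18.8 and 16.7 FPKM in the control libraries, which edgeR's quasi-likelihood test put at -0.51 ± 0.16 on the log2 scale (SE), with p at 0.0143 before and 0.995 after adjustment. Control replicate 1 stood apart: its counts differed from those of the other libraries by a chi-square of 139 to 234 per degree of freedom, against 8.49 to 72.2 among the others, and mitochondrially encoded genes took 2.18% of its counts, against 0.718% to 1.41% elsewhere. The most similar pair, at 8.49, was Setd5sh replicate 2 and control replicate 2. The motor neuron progenitor markers Olig2 and Nkx6-1 were detected in all libraries, and the summed level of the 8 progenitor markers was 299 to 365 FPKM in Setd5sh libraries and 267 to 289 FPKM in control libraries. The sum of 7 neuron markers was 53.9 to 70.3 FPKM in Setd5sh libraries and 40.2 to 45.1 FPKM in control libraries. In the Setd5sh libraries Tubb3 made up most of the neuron sum, at 53.5, 30.5 and 55.0 FPKM. In control libraries it was at 19.0, 17.3 and 26.1 FPKM. Of the 4 neuron markers tested, 3 had log2 fold changes above 0: Tubb3 at 1.15, Isl1 at 0.53 and Elavl3 at 0.38. Tubb3 was higher in Setd5sh in all 3 same-numbered pairs, at an unadjusted p of 0.00321 and an adjusted p of 0.995 by edgeR. The motor neuron gene Mnx1 had -0.61 and was lower in all 3 pairs. Of the progenitor markers, 5 had log2 fold changes above 0: Neurog2 0.64, Olig1 0.55, Nes 0.44, Nkx6-1 0.38 and Olig2 0.34. Each of these was higher in Setd5sh in all 3 pairs. Neurog2 and Olig1 had unadjusted p of 0.00978 and 0.0329 by edgeR, with an adjusted p of 0.995 for both. Sox1, Sox2 and Pax6 had log2 fold changes of -0.17, -0.02 and -0.01. The summed level of 6 pluripotency markers was 9.09 to 62.0 FPKM in Setd5sh libraries and 18.9 to 82.8 FPKM in control libraries. This sum was highest in the libraries numbered 2. Dppa5a made up most of it, at 25.6, 52.3 and 7.98 FPKM in Setd5sh libraries, against 15.2, 69.4 and 24.1 FPKM in control libraries. Pou5f1 was at most 8.31 FPKM. For 7 feeder fibroblast markers the sum was 8.52 to 10.4 FPKM in Setd5sh libraries and 6.65 to 9.73 FPKM in control libraries. For 5 endoderm and 5 mesoderm markers it was at most 6.73 FPKM in Setd5sh libraries and 8.99 FPKM in control libraries. Msgn1 was at 0 in all libraries, and Afp, Apoa1 and Lum were at 0 in some. In such bulk samples a different mix of cells and a different amount of RNA per cell cannot be told apart, and the part of these values in the results on ribosomal proteins was not tested.

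The ribosomal protein mRNAs were among the most abundant of the transcriptome. Their median level was 402 FPKM, between 32.4 and 2654, beside a median of 7.64 FPKM over all 12199 tested genes. The members were short, with a median coding length of 453 bases against 1362 bases for tested genes with a coding sequence, and a median exonic length of 1770 against 4088 bases. GC content was similar, with medians of 50.9% and 50.04%. They lie on 19 chromosomes, 14 of them on chromosome 7 and 8 on chromosome 9. The highest mean levels per exonic length belonged to the stalk genes Rplp1 at 2654 and Rplp0 at 1642 FPKM and to the small subunit genes Rps2 at 1632 and Rps15 at 1549 FPKM. At the low end, above Rps19bp1, were Rpl21 at 44.5 FPKM, the paralog Rpl22l1 at 50.7 FPKM and the assembly-related paralog Rpl7l1 at 70.4 FPKM. The deposited length joins all exons of a gene, which for these genes can be several times the length of the main mRNA. Rescaled to the length of each gene's principal transcript, the median level was 1061 FPKM and Rpl41, with the shortest coding sequence of 75 bases, stood highest at 3213, so the order of members depends on which length is used. A further uncertainty is that 300 symbols of ribosomal protein pseudogenes are in the table, 24 each for Rpl31 and Rps12 and 15 for Rpl21, so the low level of Rpl21 is uncertain. Their counts came to 2.13% to 2.59% of the members' counts per library, and the sources used here do not say how reads that match several copies were assigned.

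No ribosomal protein mRNA passed the test for a difference between Setd5sh and control cells, by any of the tools run. Of the 83 members, 0 passed an adjusted p of 0.05, as did 0 of the 12199 tested genes, or 0%. At an unadjusted p under 0.05, 0 members were higher and 0 were lower, against 75 tested genes higher, or 0.615%, and 74 lower, or 0.607%, together 149 or 1.22%. DESeq2 and limma also called 0 members, at adjusted and at unadjusted p, where 1.81% and 1.25% of tested genes had an unadjusted p under 0.05. In deposited FPKM, the Setd5sh and control libraries overlapped for every member, while 3.07% of tested genes were higher without overlap and 2.14% lower. The smallest unadjusted p of any member was 0.217, for Rpl23. The members' median log2 fold change was 0.04, between -0.26 for Rpl22l1 and 0.25 for Rplp0, and 57 of 83 were above 0, or 68.7%, beside a median of -0.04 and 42.6% above 0 over all tested genes. The median was -0.02 without Setd5sh replicate 1 or Setd5sh replicate 2, -0.03 without control replicate 1, and between -0.03 and 0.11 over all libraries left out in turn, so its sign rested on single libraries. The 46 large subunit genes had a median of 0.03 and the 34 small subunit genes a median of 0.05, with 29 and 25 above 0.

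The size of difference that these libraries could have missed was limited for most members. The 95% interval of the fold change lay within 2-fold in either direction for 80 of 83 members and within 1.5-fold for 63. The exceptions to the 2-fold limit were Rps28 and Rps29 of the small subunit and the large subunit paralog Rpl22l1, which also had the 3 widest ranges over the 6 libraries. A median standard error of 0.20 on the log2 scale limited what 3 libraries per group could show for shifts of a single gene.

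**Figure D1:**
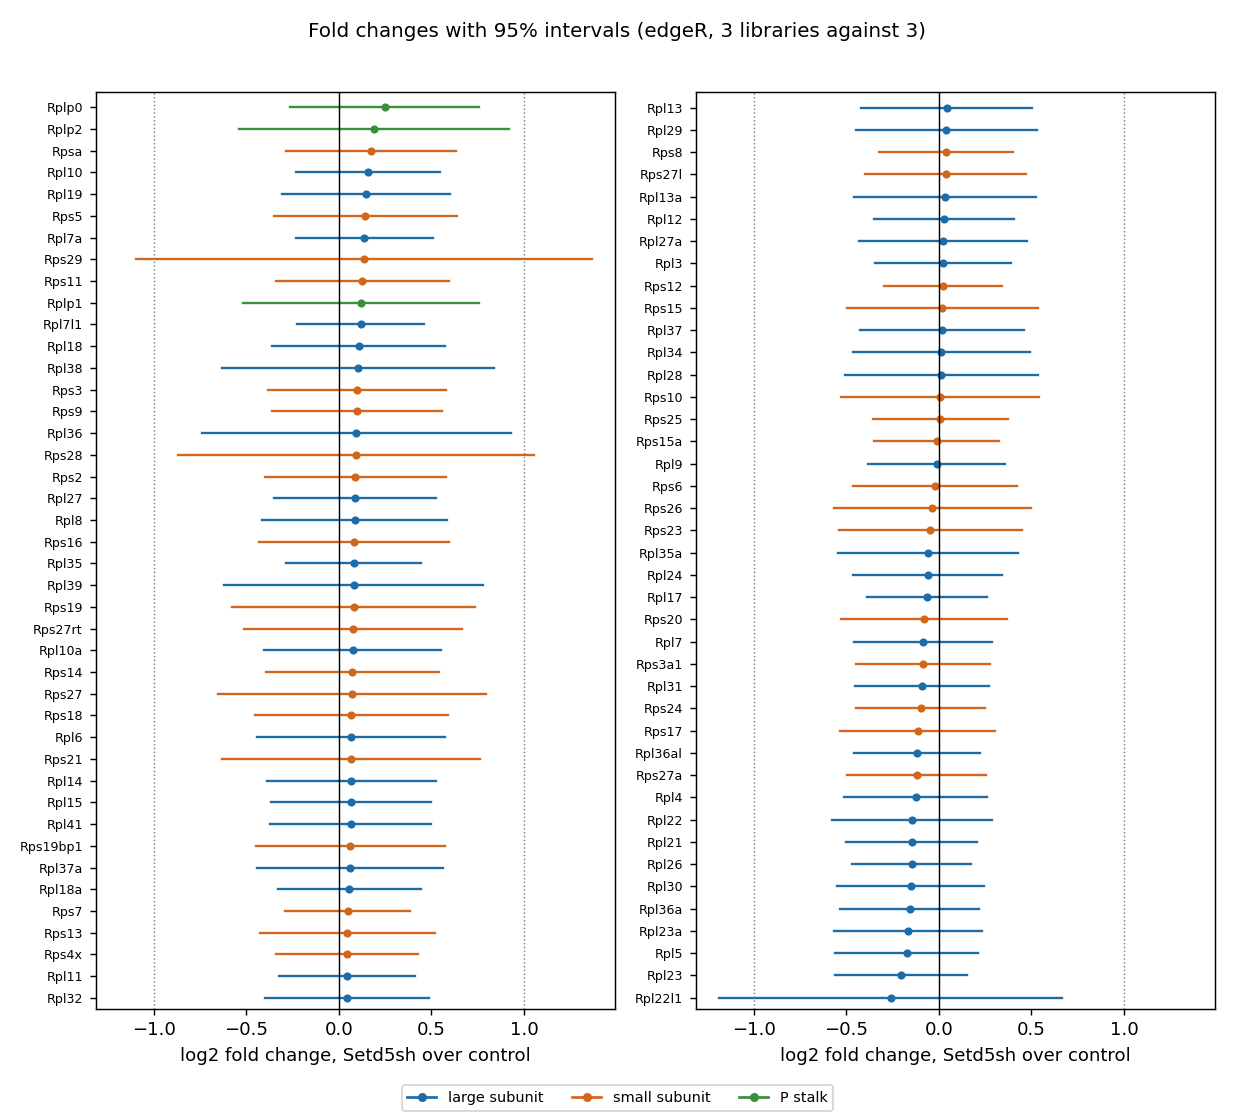
Log2 fold change of each ribosomal protein gene, Setd5sh over control, with its 95% interval from edgeR's quasi-likelihood fit (x axis, log2 scale; dotted lines at 2-fold), ordered from highest to lowest. Every interval includes 0, and Rps29, Rps28 and Rpl22l1 reach past a dotted line.

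The P stalk recruits translation factors to the large subunit, with Rplp0 as the base that holds dimers of Rplp1 and Rplp2. All 3 had point estimates above 0, with a median of 0.19, and none passed the test. Rplp0 was at 1683, 1750 and 1923 FPKM in Setd5sh libraries, against 1048, 1557 and 1894 FPKM in control libraries. The groups overlapped, and control replicate 1 was the lowest library. Its log2 fold change of 0.25 ± 0.22 (SE) was the highest point estimate of the 83, at an adjusted p of 0.995 by edgeR. Rplp2 was at 316, 302 and 142 FPKM in Setd5sh libraries, against 172, 289 and 206 FPKM in control libraries. Here Setd5sh replicate 3 was lowest, and the other Setd5sh libraries were highest. Rplp1 had the same lowest library, with 3077, 3471 and 1751 FPKM in Setd5sh libraries, against 1964, 3150 and 2513 FPKM in control libraries.

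In the large subunit, the lowest p belonged to Rpl23, a large subunit protein that also binds Mdm2. It was at 303, 320 and 255 FPKM in Setd5sh libraries, against 356, 342 and 308 FPKM in control libraries, a log2 fold change of -0.21 ± 0.15 (SE). Setd5sh replicate 2 lay above control replicate 3, so the groups overlapped. Rpl5, which joins 5S ribosomal RNA with Rpl11, was at 245, 257 and 285 FPKM in Setd5sh libraries, against 334, 268 and 277 FPKM in control libraries. Control replicate 1 was highest for Rpl5, the opposite of its place for Rplp0, and the log2 fold change was -0.17 ± 0.17 (SE). Rpl11 was at 379, 366 and 294 FPKM in Setd5sh libraries, against 302, 345 and 355 FPKM in control libraries, with overlapping groups. Rpl10, which joins the large subunit late in its maturation, was at 560, 615 and 624 FPKM in Setd5sh libraries, against 425, 570 and 613 FPKM in control libraries. The 3 Setd5sh values were close to each other, and control replicate 1 was again the low one. Among the members with the lowest p in each direction, Rpl26, Rpl23a and Rpl36a had log2 fold changes of -0.15, -0.17 and -0.16, and Rpl7a and Rpl7l1 of 0.14 and 0.12. Rpl38, known in mouse for the tail short mutation and for translation of Hox mRNAs, was at 553, 537 and 242 FPKM in Setd5sh libraries, against 405, 507 and 324 FPKM in control libraries. Its lowest libraries were those numbered 3 in both groups.

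In the small subunit, Rpsa, the laminin receptor-related protein of the subunit's surface, was at 975, 976 and 1094 FPKM in Setd5sh libraries, against 680, 910 and 1099 FPKM in control libraries. The highest and the lowest value were both in control libraries, and the log2 fold change of 0.17 had an unadjusted p of 0.406, the lowest of the small subunit genes. Rps6, the substrate of the S6 kinases, was at 871, 900 and 1066 FPKM in Setd5sh libraries, against 772, 918 and 1174 FPKM in control libraries. For Rps6 the libraries numbered 3 were the highest of each group. Rps19, the gene most often mutated in Diamond-Blackfan anaemia in humans, was at 212, 217 and 103 FPKM in Setd5sh libraries, against 152, 199 and 151 FPKM in control libraries. The 103 FPKM of Setd5sh replicate 3 was below all control values and the other Setd5sh values were above them.

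The members together took 7.57%, 8.004% and 6.75% of all counts in the Setd5sh libraries, against 6.09%, 7.70% and 7.84% in the control libraries. The means were 7.44% ± 0.637 and 7.21% ± 0.970 (SD, n = 3 each), a difference of 0.232 percentage points that is smaller than either SD. Of summed FPKM they took 14.5% ± 1.20 in Setd5sh libraries and 13.9% ± 1.39 in control libraries. Setd5sh replicate 3 and control replicate 1 had the lowest shares of their groups, and these same libraries were the lowest of all 6 for 37 and 36 members.

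After TMM scaling, the median member's log2 level lay 0.08, 0.11 and -0.20 from its own mean over the 6 libraries in the Setd5sh libraries, and -0.20, 0.07 and 0.10 from it in the control libraries. Over all tested genes the same medians lay between -0.03 and 0.01. Within libraries of the same number, the median member differed by 0.33, 0.07 and -0.32 on the log2 scale, Setd5sh minus control, for numbers 1, 2 and 3. In these pairs 64, 74 and 8 of the 83 members were higher in Setd5sh, while the medians of all tested genes were between -0.02 and -0.001. So pairs 1 and 3 had opposite signs and similar sizes, and the near-zero fold changes of the whole comparison average over them. Rpl10, Rpl7l1 and Rplp0 were higher in Setd5sh in all 3 pairs, and Rps27a, Rpl22, Rpl30, Rpl23 and Rpl31 were lower in all 3, which is 3 and 5 of 83 members beside 1546 and 1540 of the 12199 tested genes.

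**Figure D2:**
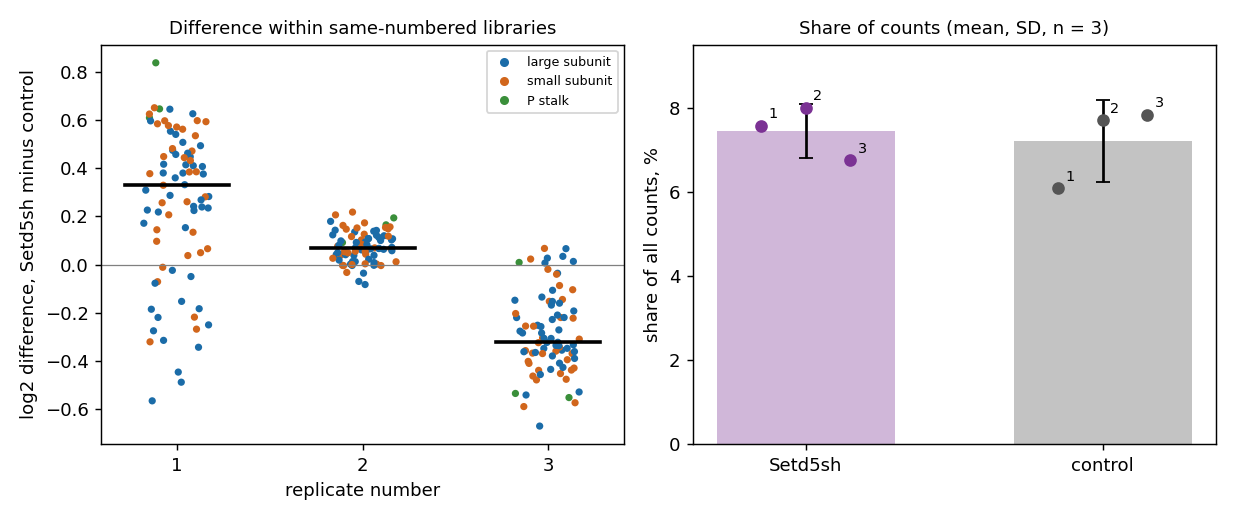
Left, log2 difference in normalised level of each of the 83 genes (points), Setd5sh minus control, within libraries of the same replicate number, with the median as a bar. Right, the genes' share of all counts in percent, Setd5sh then control, with each library as a numbered point, the mean as a bar and the SD as an error bar. The differences are mostly above 0 in pair 1 (median 0.33) and below 0 in pair 3 (median -0.32), and the shares of both groups overlap.

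Within libraries, the members' levels varied with coding length. The 11 members with coding sequences under 300 bases had a median log2 deviation of 0.33, 0.33 and -0.72 in the Setd5sh libraries, and of -0.08, 0.25 and -0.27 in the control libraries. The 23 members of 600 bases or more lay at 0.04, 0.05 and 0.04 in the Setd5sh libraries, and at -0.28, -0.04 and 0.15 in the control libraries. By these medians the short members were low in the libraries numbered 3, and the long ones were low in control replicate 1. Across the 83 members, the Spearman correlation of the deviation with coding length was -0.41, -0.49 and 0.66 in the Setd5sh libraries and -0.29, -0.54 and 0.45 in the control libraries. Across 10738 other tested genes it was -0.04, -0.15 and 0.02 in the Setd5sh libraries and 0.23, -0.13 and -0.26 in the control libraries. With GC content it was 0.38, 0.22 and -0.10 across members in the Setd5sh libraries and -0.43, 0.15 and 0.17 in the control libraries. Across the other genes the correlation with GC content was 0.34, 0.66 and -0.20 in the Setd5sh libraries and -0.69, 0.30 and 0.48 in the control libraries, larger in size than that with coding length in every library. The lowest value was in control replicate 1, the library that stood apart. Genes share their library in these correlations and are not independent replicates. The 231 other tested genes under 300 bases lay at 0.05, 0.08 and -0.22 in the Setd5sh libraries and at -0.07, 0.10 and 0.03 in the control libraries. They were also lowest in Setd5sh replicate 3, at a smaller size than the ribosomal protein genes.

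**Figure D3:**
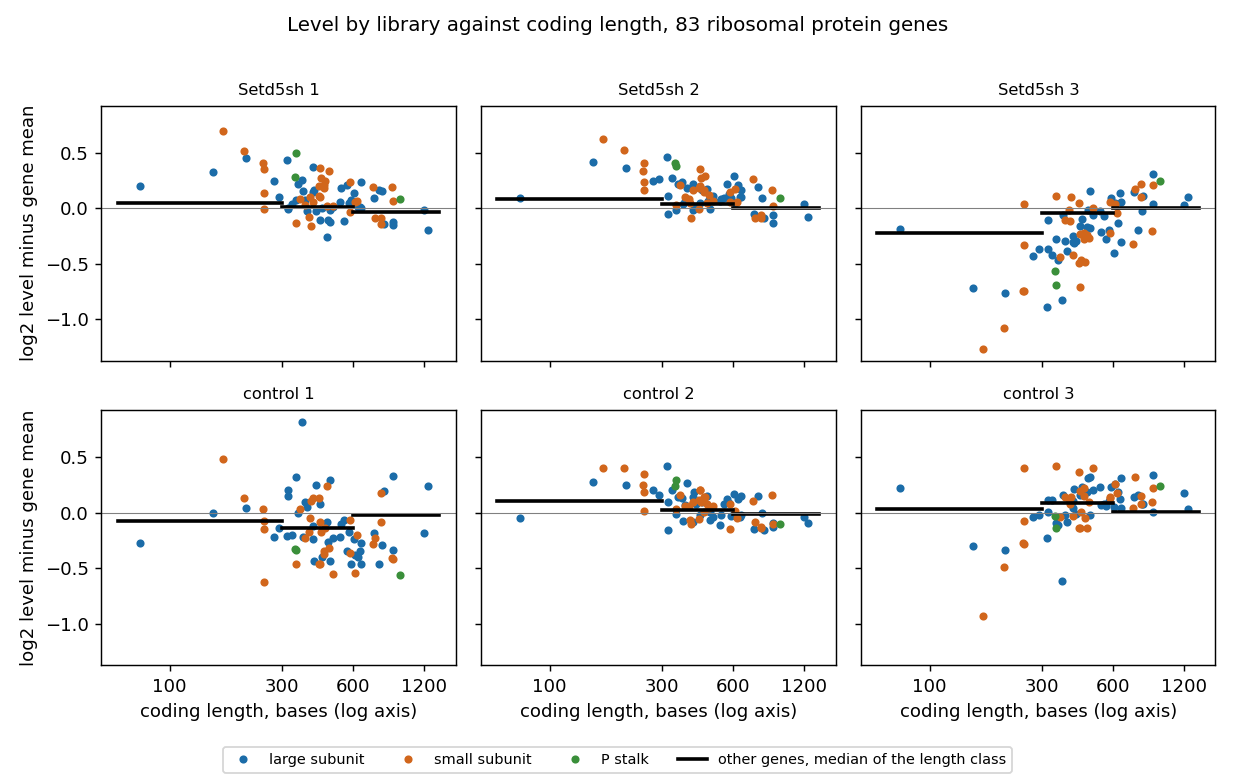
Log2 normalised level of each ribosomal protein gene minus that gene's mean over the 6 libraries (y axis) against coding length in bases (log x axis), with a panel for each library, Setd5sh above control. Black bars give the median of the other tested genes in the same length class. Most of the shortest genes are low in Setd5sh replicate 3 and, to a lesser size, in control replicate 3. Rpl41 and Rps27rt are above their means in control replicate 3, at 0.22 and 0.41.

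Among the short members, Rps29, a zinc-binding protein of the small subunit, had the widest range of all members, 1.96 on the log2 scale. It was at 690, 678 and 180 FPKM in Setd5sh libraries, against 582, 593 and 227 FPKM in control libraries. Rps28 was at 192, 199 and 64.8 FPKM in Setd5sh libraries, against 143, 187 and 96.6 FPKM in control libraries. Both were lowest in Setd5sh replicate 3 and next lowest in control replicate 3. Rpl36, whose 315 coding bases put it just outside the short class, was also lowest in Setd5sh replicate 3. It was at 1226, 1291 and 497 FPKM in Setd5sh libraries, against 764, 1279 and 783 FPKM in control libraries. Rpl39, Rps27 and Rps21 shared the lowest library, at 159, 178 and 278 FPKM. Rpl41 did not: the shortest member of all was at 1347, 1294 and 1051 FPKM in Setd5sh libraries, against 944, 1193 and 1383 FPKM in control libraries. Its lowest library was control replicate 1, as for most long members and for Rps27rt, another short member. Rps27rt was at 96.5, 112 and 101 FPKM in Setd5sh libraries, against 60.9, 103 and 130 FPKM in control libraries. In all, 11 members ranged over more than 1 log2 unit, and the steadiest member, Rpl17, ranged over 0.21.

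**Figure D4:**
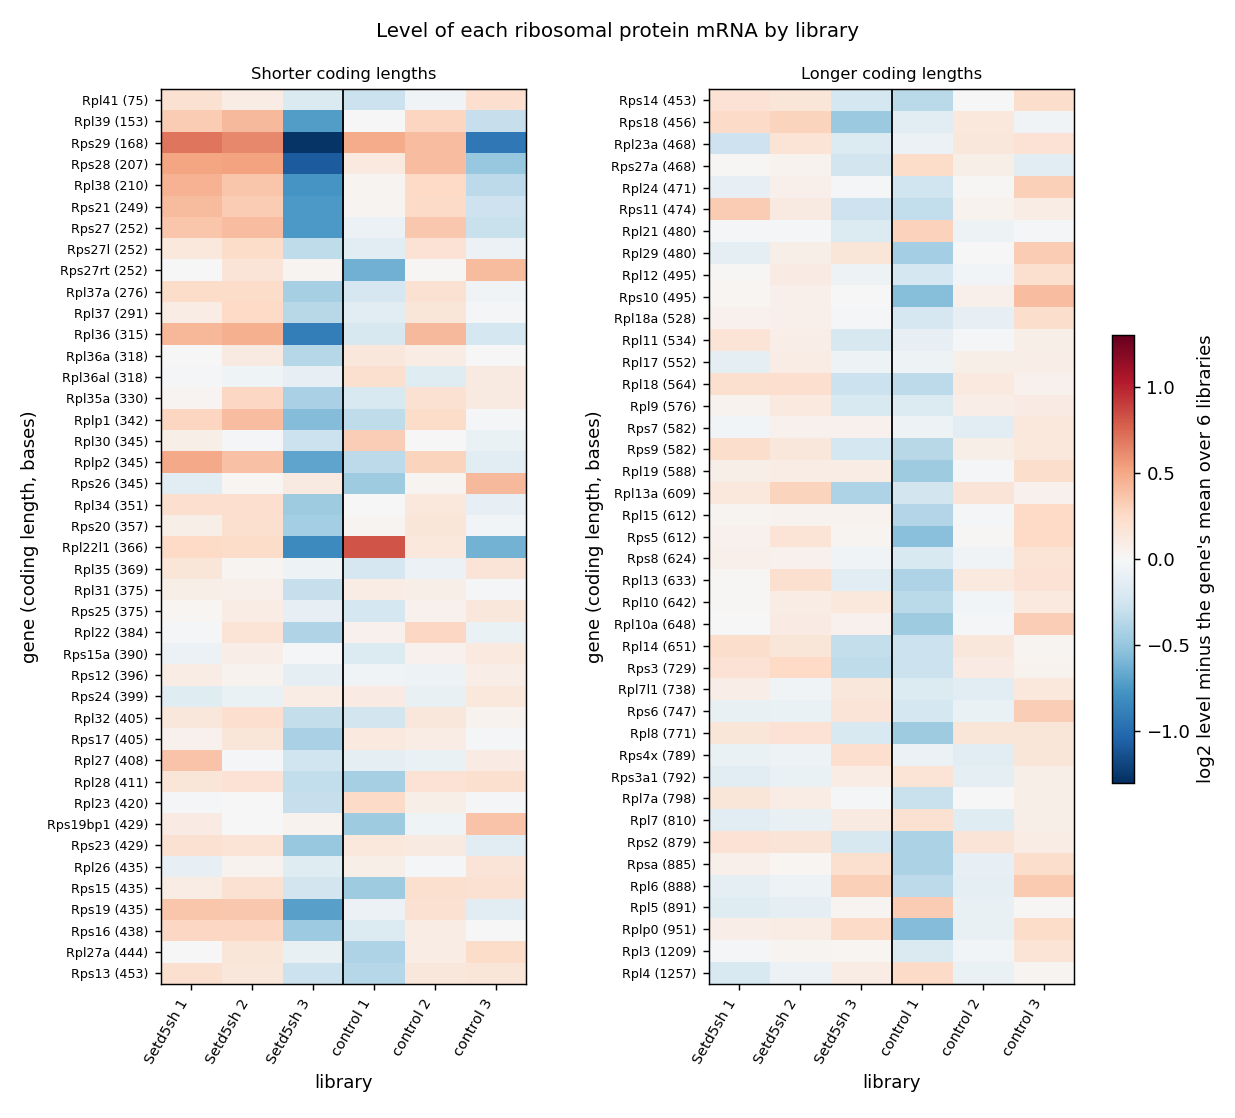
Log2 normalised level of each of the 83 genes minus its mean over the 6 libraries (colour), with libraries in columns, Setd5sh then control, and genes in rows from the shortest to the longest coding length (in brackets, bases). The column of Setd5sh replicate 3 is lowest for most short genes, down to -1.27 for Rps29, and the column of control replicate 1 is low for many long genes.

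Most members varied together across libraries, with exceptions. Over the 6 libraries, the log2(FPKM + 1) of a member had a median Pearson correlation of 0.68 with the mean of the other members, and 32 members had at least 0.8, led by Rpl32 at 0.994. These correlations are descriptions over 6 libraries of 2 groups that share library depth and composition. Without a value over all tested genes beside them, they do not set the members apart from other genes. A group of 8 members had a negative value: Rpl7 at -0.82, Rpl5 at -0.80, Rps3a1 at -0.79, Rpl4 at -0.78 and Rps24 at -0.58, and also Rps4x, Rpl36al and Rpl21. Rpl4, which has the longest coding sequence of the set, was at 828, 929 and 1038 FPKM in Setd5sh libraries, against 1097, 940 and 983 FPKM in control libraries. Control replicate 1 was its highest library, where most members were low. The genes outside the set with the most similar pattern were Uqcr10 at 0.995, the elongation factor subunit gene Eef1b2 at 0.995, Atox1 and Ccs at 0.994 and Npm3 at 0.993. Eef1b2 was at 341, 365 and 270 FPKM in Setd5sh libraries, against 267, 346 and 324 FPKM in control libraries.

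The ratio of a paralog to its main gene was taken within each library on log2(FPKM + 1), where the library's scaling nearly cancels. It does not correct for trends with length or GC content. Both genes were expressed in 5 pairs. With 3 libraries per group an exact two-sided permutation test cannot give a p below 0.1, so no pair could have passed 0.05, and the log2 ratios are given as a description. The Benjamini-Hochberg adjusted p was 1 for every pair. The Rpl22l1 to Rpl22 ratio was -1.91 ± 0.354 in Setd5sh and -1.84 ± 0.653 in control (SD, n = 3 each; exact permutation p = 1). Rpl22l1 was the most variable of these genes, at 55.7, 56.8 and 26.8 FPKM in Setd5sh libraries, against 80.2, 53.9 and 30.7 FPKM in control libraries. The Rps27l to Rps27 ratio was -0.50 ± 0.352 in Setd5sh and -0.51 ± 0.192 in control (SD, n = 3 each; exact permutation p = 1). The Rpl36al to Rpl36a ratio was -1.55 ± 0.217 in Setd5sh and -1.62 ± 0.193 in control (SD, n = 3 each; exact permutation p = 0.8). The Rpl7l1 to Rpl7 ratio was -2.37 ± 0.111 in Setd5sh and -2.57 ± 0.237 in control (SD, n = 3 each, exact permutation p = 0.3). Its difference of 0.20 was the largest of the 5. By library the ratio was -2.24, -2.43 and -2.44 in Setd5sh and -2.84, -2.46 and -2.41 in control. It was thus lowest in control replicate 1 and highest in Setd5sh replicate 1. Rps4l, annotated as a transcribed pseudogene, stood to Rps4x at -2.18 ± 0.207 in Setd5sh and -2.34 ± 0.582 in control (SD, n = 3 each; exact permutation p = 0.9).

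Other genes of the translation machinery gave 0 calls as well, beside 0% of tested genes. Of the ribosomal proteins outside the name rule, Fau and Rack1 had log2 fold changes of 0.01 and 0.15. Of 8 elongation factor genes tested, 7 were above 0, with a median of 0.13. Eif5a, the hypusine-carrying factor, had 0.22, Eef1d and Eef2 each 0.21, and Eif5a2 had -0.57. Of 37 initiation factor and poly(A)-binding genes, 21 were above 0 and 16 below, with a median of 0.06, between -0.53 for the helicase gene Eif4a2 and 0.27 for Eif1. The 18 other known TOP mRNAs had a median of -0.05, with 6 above 0 and 12 below. Among them the intermediate filament gene Vim had 0.45 at an unadjusted p of 0.0466 by edgeR, and the host transcript Gas5 had -0.41. Gas5 was at 36.25, 36.50 and 30.24 FPKM in Setd5sh libraries, against 76.15, 34.66 and 23.69 FPKM in control libraries. The highest library was control replicate 1 for Gas5, Eif5a2 and Eif4a2, and the same library was lowest for Eif5a, Eef1d, Eef2 and Eif1. The 78 mitochondrial ribosomal protein genes had a median of 0.04, with 49 above 0 and 29 below.

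Genes that regulate ribosomal protein synthesis and the response to its failure were not called either. The 23 regulators of TOP mRNA translation and of ribosomal protein gene transcription had a median log2 fold change of -0.03, with 11 above 0 and 12 below. Myc, a transcription factor that drives ribosome synthesis, had 0.72 at an unadjusted p of 0.0294 and an adjusted p of 0.995 by edgeR. The S6 kinase gene Rps6kb1 had -0.61, the gene of the La protein Ssb had -0.63, and the translation repressor gene Eif4ebp1 had 0.33. Rps6kb1 was at 4.50, 3.94 and 4.83 FPKM in Setd5sh libraries, against 11.3, 4.39 and 4.16 FPKM in control libraries. Ssb was at 66.45, 61.14 and 82.11 FPKM in Setd5sh libraries, against 188.14, 67.64 and 61.09 FPKM in control libraries. For both, control replicate 1 was the highest library. Of 7 genes listed as chaperones of ribosomal proteins, 3 were above 0 and 4 below, with a median of -0.09. Npm1 and Nap1l1 of this list, which are not dedicated to ribosomal proteins, also belong to the other known TOP mRNAs. Grwd1 had 0.34, Heatr3 0.24 and Tsr2 0.21, and Npm1 had -0.35. Npm1 was at 474, 385 and 544 FPKM in Setd5sh libraries, against 984, 376 and 399 FPKM in control libraries. Its highest library was control replicate 1, which was the lowest for Grwd1, Heatr3 and Tsr2. The 13 p53 targets had a median of 0.03, with 8 above 0 and 5 below. Among these Plk2 had 0.49 at an unadjusted p of 0.0322 by edgeR, Cdkn1a, the cell cycle inhibitor, had 0.41, and Trp53inp1 had -0.51. Here too, control replicate 1 was the lowest library for Plk2 and Cdkn1a and the highest for Trp53inp1. For Plk2 the groups did not overlap, as for 3.07% of tested genes that were higher without overlap. Plk2 was at 6.75, 6.48 and 8.21 FPKM in Setd5sh libraries, against 4.20, 6.19 and 4.82 FPKM in control libraries. Every gene named from the lists of this and the previous paragraph had an adjusted p of 0.995 by edgeR, except Fau at 0.999.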

How the data were processed

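Polyadenylated RNA of 6 libraries was counted by the authors; the deposited table holds whole-number read counts per gene, FPKM and exonic gene lengths for 55400 Ensembl genes. Tools named without roles in the submitters' processing notes are SAMtools, HTSeq, HISAT2 and DESeq2, with the build mm10; the sources used here do not state how strand and reads that match several copies were treated. Each deposited FPKM value was recovered, within 0.005, by scaling its count by length and column total. Exonic lengths were deposited as other values in bases and were used only for rescaling and length trends.

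Symbols, types, coding lengths and GC content came from GENCODE M21, in which 55140 identifiers were found. Genes with a mean of at least 1 FPKM, 12199 in all, were fitted with edgeR 4.0.16 quasi-likelihood tests on the deposited counts with TMM scaling, Benjamini-Hochberg adjustment and a two-sided threshold of 0.05, in R 4.3.3. Levels per library are log2 CPM after TMM scaling, fold changes are Setd5sh over control, and 95% intervals come from the fit. DESeq2 1.42.0, limma 3.58.1 on log2(FPKM + 1), other scalings and filters, trends on GC and length, and fits without libraries were alternatives. Scripts were tested on simulated counts.

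Members, lists and tests were chosen with earlier results of these data known. Named are the structural and assembly markers, paralog pairs, the 5 lowest p in each direction, the 4 highest and 4 lowest levels, the genes beside the FPKM minimum and up to 4 genes of each list. The result of 1 list gene is not reported here. Further members were named after their values were seen: Rpl36, Rps28, Rps29, Rpl39, Rpl41, Rps27rt, Rps21, Rpl17, Rpl4, those with negative correlations or 1 sign in all pairs, and Rpl32.

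Both groups number their libraries 1 to 3. Same-numbered libraries deviated together from their group means, with correlations of 0.183, 0.663 and 0.139 that each exceed 0.1. On this basis alone, since the labels are silent, same-numbered libraries were also compared as pairs. The main edgeR fit, with its fold changes, p-values and intervals, used no pairing, and the replicate block was an alternative. The support is weak for numbers 1 and 3: Setd5sh replicate 3 correlated with control replicate 1 at 0.166, and over the members Setd5sh replicate 1 correlated with control replicate 2 at 0.703, against 0.322 with control replicate 1. With the replicate block no call on a member changed.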

Additional observations from a re-analysis of the deposited data

How the results depend on the processing

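The fits with GC and coding length trends, those without both libraries of a number and DESeq2 with the replicate block were added after the data had been seen. Over 24 alternatives, 0 members passed the adjusted threshold, and the fit with the replicate block changed no call. Without filtering on FPKM, 29462 genes were tested and 73 passed, 0 of them members, and DESeq2 with the replicate block called 2 genes, neither a member. At an unadjusted p under 0.05, 1 member, Rpl41, was higher with GC and coding length trends removed and the replicate block, where 0 were otherwise. The members' median log2 fold change of 0.04 was 0.226 without both libraries numbered 3, -0.10 without both numbered 1, and between -0.03 and 0.11 without each library in turn. It was below 0 without Setd5sh replicate 1, Setd5sh replicate 2 or control replicate 1. The smallest count of any member in a library was 705.

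Of 648 values for the 27 named members, 66 had the opposite sign of the main value and 0 passed the threshold; the cause was not tested. 
With GC and coding length trends removed, the log2 fold change was -0.029 for Rpl11, -0.019 for Rpl38, 0.016 for Rpl5, 0.023 for Rpl7, -0.0297 for Rps15 and -0.041 for Rps27. With GC and coding length trends removed and the replicate block, the log2 fold change was -0.025 for Rpl11, 0.0203 for Rpl5, 0.026 for Rpl7, -0.031 for Rps15, -0.0061 for Rps19 and -0.0397 for Rps27. Without both libraries numbered 1, the log2 fold change was -0.075 for Rpl11, -0.081 for Rpl38, 0.0027 for Rpl5, 0.052 for Rpl7, -0.00036 for Rpl7a, -0.11 for Rplp1, -0.14 for Rplp2, -0.20 for Rps15, -0.12 for Rps19, -0.14 for Rps19bp1, -0.13 for Rps2, -0.12 for Rps27 and -0.076 for Rps27l. For Rps6 it was 0.036 with no filter and 0.0012 with edgeR's filterByExpr. With limma, Rps6 was at 0.00201 on log2(FPKM + 1) and at 0.00203 on log2(FPKM + 0.1). It was -0.00298 for Rpl11, 0.0069 for Rpl5 and 0.027 for Rpl7 with GC and exonic length trends removed. It was -0.0073 for Rpl11, 0.012 for Rpl5 and 0.03 for Rpl7 with GC and exonic length trends removed and the replicate block. For Rps6 it was 0.0056 without both libraries numbered 2, 0.076 without both numbered 3, and 0.0053 with DESeq2 and the replicate block. Leaving out each library in turn gave ranges of -0.039 to 0.15 for Rpl11, -0.10 to 0.40 for Rpl38, -0.018 to 0.48 for Rplp2, -0.16 to 0.14 for Rps15, -0.084 to 0.36 for Rps19, -0.086 to 0.36 for Rps27, -0.0497 to 0.19 for Rps27l, -0.12 to 0.16 for Rps6, -0.036 to 0.36 for Rplp1, -0.55 to 0.17 for Rpl22l1, -0.061 to 0.14 for Rps4x, -0.18 to 0.0049 for Rpl7, -0.11 to 0.30 for Rps19bp1 and -0.061 to 0.21 for Rps2. The difference in paralog ratio ranged over -0.34 to 0.29 for Rpl22l1/Rpl22, -0.19 to 0.13 for Rps27l/Rps27, -0.056 to 0.16 for Rpl36al/Rpl36a and -0.18 to 0.33 for Rps4l/Rps4x.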

Other observations

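Several genes named for ribosomal proteins but annotated as pseudogenes had levels like those of expressed genes. Rps4l was at 171, 192 and 176 FPKM in Setd5sh libraries, against 89.8, 191 and 218 FPKM in control libraries, with a log2 fold change of 0.11. Rpl37rt was at 87.9, 104 and 47.5 FPKM in Setd5sh libraries, against 73.6, 93.8 and 55.0 FPKM in control libraries. Rpl6l was at 65.4, 65.9 and 37.5 FPKM in Setd5sh libraries, against 52.7, 60.9 and 39.9 FPKM in control libraries. Setd5sh replicate 3 was the lowest library for both, and control replicate 1 for Rps4l. Adjusted p were 0.995 for all 3 by edgeR. Rps3a3 and Rps3a2 averaged 3.96 and 2.27 FPKM, Rpl32l 0.418, and Rps12l1 was listed at 0 in all libraries. Whether their reads came from the copies or from the parent genes was not tested.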
